A study of Homo sapiens with 6 samples.

Results

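The interferon system of AGS cells was described through 10 genes, namely the ligands IFNB1, IFNL1, IFNL2 and IFNL3 and the receptor chains IFNAR1, IFNAR2, IFNGR1, IFNGR2, IFNLR1 and IL10RB. They were chosen by symbol, and probes were assigned to them through the RefSeq accession that the array gives for each probe. All 10 of 10 genes were found, with 14 probes of 1 spot each, among 22438 genes and 58193 probes tested. AGS is a human gastric adenocarcinoma cell line, and C1GALT1 is the glycosyltransferase that makes the core 1 structure of mucin-type O-glycans. AGS cells were profiled 48 h after transfection with a control siRNA (si-Control) or with 1 siRNA against C1GALT1 (si-C1GALT1-3), with 3 samples in each group and 1 one-colour Agilent array for each sample. The comparison asks which transcripts differed in the cells that received the C1GALT1 siRNA. Since each group received a single siRNA, loss of C1GALT1 and any other effect of that siRNA sequence cannot be told apart.

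Interferons are secreted cytokines, and many of them are made when sensors in a cell detect viral nucleic acid. Type I interferons (IFNB1 and the IFNA family) bind IFNAR1 and IFNAR2, type II interferon (IFNG) binds IFNGR1 and IFNGR2, and type III interferons (the IFNL family) bind IFNLR1 together with IL10RB, which also serves interleukin-10 and related cytokines. The receptors act through JAK kinases and STAT factors to switch on interferon-stimulated genes, and type III interferons act mostly on epithelial cells.

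The ligand genes are known to be switched on by IRF and NF-kB factors at the DNA just before their start, so the upstream windows of 3 of the 4 ligand genes are shown here. The sequences are the 250 bases before the RefSeq start in GRCh38.p14, written 5′ to 3′ on the gene's own strand, and capitals mark every match, on either strand, to the IRF half-site AANNGAAA and to the NF-kB pattern GGANNTTCC.
IFNB1, chr9:21077943-21078192, minus strand: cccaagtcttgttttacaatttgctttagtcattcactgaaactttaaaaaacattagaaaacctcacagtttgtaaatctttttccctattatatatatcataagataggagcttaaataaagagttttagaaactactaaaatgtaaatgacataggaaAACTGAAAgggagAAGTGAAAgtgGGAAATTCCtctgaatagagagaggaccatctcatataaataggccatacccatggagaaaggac
IFNL1, chr19:39296157-39296406, plus strand: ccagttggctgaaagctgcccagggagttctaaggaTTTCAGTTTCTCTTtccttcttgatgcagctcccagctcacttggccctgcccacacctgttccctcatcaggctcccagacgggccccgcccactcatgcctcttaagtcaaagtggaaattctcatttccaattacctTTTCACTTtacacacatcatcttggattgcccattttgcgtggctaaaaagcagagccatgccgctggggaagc
IFNL3, chr19:39245251-39245500, minus strand: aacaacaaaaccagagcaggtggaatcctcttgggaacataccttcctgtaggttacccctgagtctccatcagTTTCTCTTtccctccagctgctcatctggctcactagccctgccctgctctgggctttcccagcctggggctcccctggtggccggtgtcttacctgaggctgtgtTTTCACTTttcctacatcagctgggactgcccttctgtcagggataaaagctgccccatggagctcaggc
The IFNB1 window held 2 IRF half-sites, which began 89 and 76 bases before the start, and 1 NF-kB match, which began 65 bases before it. The IFNL1 window held 3 IRF half-sites, at 214, 208 and 74 bases before the start, and the first pair overlap. The IFNL3 window, taken at the more upstream of its 2 listed starts, held 2 half-sites, at 176 and 70 bases. The window at the other listed start of IFNL3 held no match to either pattern. IFNL2 (chr19:39268146-39268395, plus strand) held the same 2 half-sites as the printed IFNL3 window at the same distances, and the 2 windows matched at 249 of 250 bases. The single difference is C31T, with the IFNL2 base first and positions counted from the first base of the printed window. Of the receptor genes, IFNGR2 held 2 NF-kB matches, at 195 and 99 bases, and no match to either pattern was found for IFNAR1, IFNGR1, IFNLR1 and IL10RB. The table of promoters had entries for 9 of the 10 genes, and IFNAR2 had none. Over all 35116 upstream windows of this length, 20.3% held an IRF half-site and 3.84% held an NF-kB match.

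Depth, labels and cell type were checked first. Between 66.2% and 72.7% of gene spots were well above background on the 6 arrays, and none was saturated. On si-Control replicate 2, a block of 9712 of 60901 gene spots gave low signal, and its spots were left out on that array, which removed 1 value each of IFNL1 and of 1 IFNAR2 probe. Arrays with the same replicate number lay on the same slide, with si-Control always in the same column, so that position on the slide and treatment cannot be told apart. C1GALT1 had normalized log2 signals of 12.22, 13.03 and 12.62 in si-Control and 11.76, 11.98 and 11.13 in si-C1GALT1-3. Every si-C1GALT1-3 value was below every si-Control value, and the difference of -1.0 (SE 0.31, limma adjusted p = 0.265) did not pass the threshold used here. All 5 epithelial markers (EPCAM, CDH1, KRT8, KRT18 and KRT19) were well above background on all arrays. Markers listed for other cells were present in part. Of 3 plasmacytoid dendritic cell markers, LILRA4 was well above background on every array with a value, IL3RA on 5 of 6 and CLEC4C on none. Of 3 fibroblast markers, COL1A1 and PDGFRB were so on every array with a value and COL1A2 on none, and PDGFRB was lower in si-C1GALT1-3 by -0.81 (SE 0.19, limma adjusted p = 0.207) with groups that did not overlap. The summed signal of the 5 leukocyte markers was between 13010 and 21370 in si-Control and between 12570 and 13940 in si-C1GALT1-3. PTPRC, a defining leukocyte gene, was by far the brightest, with mean log2 signals of 13.97 and 13.64, so the sum mostly reads PTPRC. The probes of PTPRC, CD3E and CD14 were well above background on all arrays. The groups overlapped for all 5 markers, of which 4 were below 0 and CD14 was above 0. All samples were labelled as the cell line AGS, and the paper states that short tandem repeat profiling was used to authenticate this line. Whether other cells contributed to the results was not tested. In bulk RNA fewer cells of a kind and less RNA per cell cannot be told apart.

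A gene was called at limma's unadjusted p under 0.01 with at least a 2-fold difference, read on the probe with the highest mean signal. Of all genes, 3.41% were called, 2.08% higher and 1.33% lower in si-C1GALT1-3. Of the 10 interferon genes, IFNB1 and IFNGR1 were called higher, none was called lower and 8 were not called. The median log2 fold change of the 10 was 0.61, with 8 above 0 and 2 below, against 0.02 over all genes, of which 52.4% were above 0. For 4 of the 10 (IFNB1, IFNL3, IFNGR1 and IL10RB) the groups did not overlap and si-C1GALT1-3 was higher, while the groups did not overlap, in either direction, for 25.3% of all genes. The same 4 had an unadjusted p under 0.05, compared with 16.6% of all genes. None of the 10 had a limma adjusted p under 0.05, which 0.138% of all genes had. The methods' t-test gave 0 as well, and IFNB1 and IFNGR1 passed that limit with normexp background correction and when dim probes were left out.

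IFNB1, the type I ligand that most cell types can make, rose in si-C1GALT1-3. On probe A_23_P71774 its normalized log2 signals were 6.94, 6.96 and 7.11 in si-Control and 8.83, 8.09 and 8.55 in si-C1GALT1-3. The control arrays lay close together, and all si-C1GALT1-3 arrays were above them. The mean was 7.0 ± 0.09 in si-Control and 8.49 ± 0.37 in si-C1GALT1-3 (SD, n = 3 each). The log2 fold change was 1.49 (SE 0.22, 95% interval 0.95 to 2.03), or 2.81-fold, with limma's adjusted p = 0.0961. Before normalization the probe read 162, 126 and 95.4 intensity units in si-Control and 536, 323 and 301 in si-C1GALT1-3. It was well above background on all 6 arrays, and on each slide the si-C1GALT1-3 array was the higher.

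IFNL1 encodes the first of the type III ligands, and its probe lay in the block left out on si-Control replicate 2. Probe A_23_P337800 had log2 signals of 10.96 and 10.26 in si-Control replicates 1 and 3 and 11.82, 11.71 and 10.70 in si-C1GALT1-3. The si-C1GALT1-3 array was the higher on both slides with a pair, but the groups overlapped. The fitted difference was 0.80 (SE 0.44, 95% interval -0.36 to 1.96, limma adjusted p = 0.511). With the block kept, si-Control replicate 2 would read 6.84, and the difference would be 2.04 with an SE of 1.11. Without si-Control replicate 3 the difference was 0.45, and IFNL1 was not called in any of these fits.

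IFNL2 and IFNL3 are near-identical type III ligands, and their probes gave different values. On probe A_23_P409438 IFNL2 had log2 signals of 11.34, 10.85 and 10.98 in si-Control and 11.22, 10.90 and 10.76 in si-C1GALT1-3. The arrays of both groups were interleaved. Its difference was -0.09 (SE 0.20, 95% interval -0.60 to 0.41, limma adjusted p = 0.902), so a 2-fold difference in either direction lay outside the interval.

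On probe A_23_P373619 IFNL3 had log2 signals of 7.45, 7.59 and 5.97 in si-Control and 9.17, 8.73 and 7.75 in si-C1GALT1-3. Replicate 3 was the lowest of its group in both cases, every si-C1GALT1-3 array was above every si-Control array, and si-Control replicate 3 was not well above background, so the control level was measured on 2 of 3 arrays. The difference was 1.55 (SE 0.57, 95% interval 0.14 to 2.96), or 2.92-fold, with limma's adjusted p = 0.326, and IFNL3 was not called. Within slides the differences were 1.73, 1.14 and 1.78 for replicates 1, 2 and 3. With the replicate as a block, IFNL3 was called, with an SE of 0.19 and limma's adjusted p = 0.180. Without si-Control replicate 3 the difference was 1.03. The sequences of the probes are not used here, so how far each of the IFNL2 and IFNL3 probes reads the other transcript is uncertain.

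**Figure D1:**
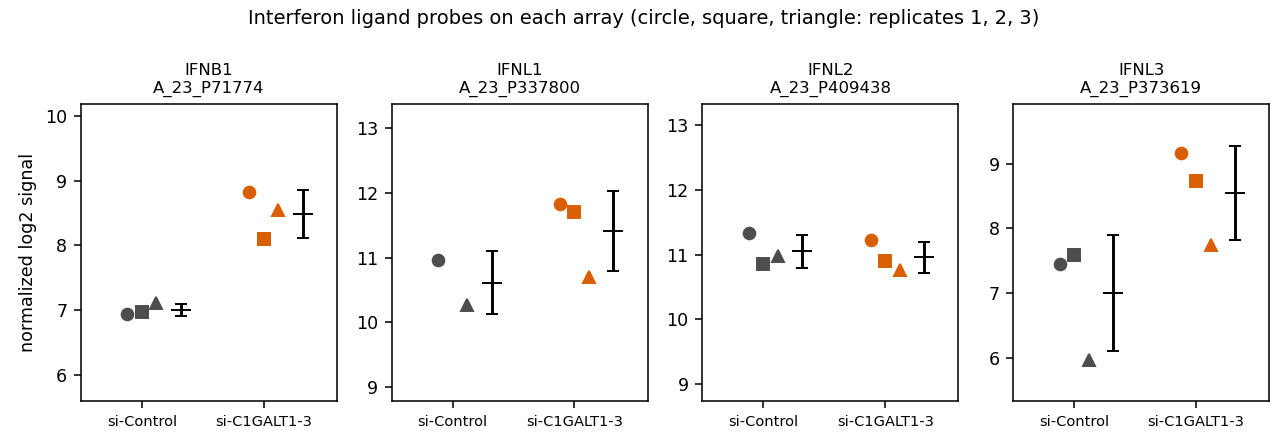
Normalized log2 signal (vertical axis) of the 4 ligand probes on each array, with replicates 1, 2 and 3 as circle, square and triangle, and the mean with SD beside them. IFNB1 lay between 6.94 and 7.11 in si-Control and between 8.09 and 8.83 in si-C1GALT1-3, while IFNL2 overlapped between the groups; IFNL1 lacks si-Control replicate 2.

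IFNGR1, the ligand-binding chain of the type II receptor, was the only receptor gene called higher. On probe A_23_P8281 its log2 signals were 11.87, 11.97 and 12.01 in si-Control and 13.07, 12.81 and 13.28 in si-C1GALT1-3. The lowest si-C1GALT1-3 array was clearly above the highest si-Control array. The mean was 11.95 ± 0.07 against 13.05 ± 0.24 (SD, n = 3 each), a difference of 1.11 (SE 0.16, 95% interval 0.70 to 1.51), or 2.15-fold, with limma's adjusted p = 0.0979. Within slides the differences were 1.20, 0.84 and 1.27. The fold was near the limit of 2, and without si-C1GALT1-3 replicate 3 the log2 difference was 0.99 and IFNGR1 was not called.

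IFNGR2 encodes the signalling chain of the same receptor, and it did not pass the test. Its probe A_23_P29036 had log2 signals of 13.16, 13.22 and 12.77 in si-Control and 13.45, 13.55 and 13.00 in si-C1GALT1-3. The groups overlapped because replicate 3 was low in both, while on each slide the si-C1GALT1-3 array was the higher, by 0.29, 0.34 and 0.23. The fitted difference was 0.29 (SE 0.22, 95% interval -0.25 to 0.83, limma adjusted p = 0.627). It was 0.15 without si-Control replicate 3, 0.18 without si-C1GALT1-3 replicate 2 and 0.45 without si-C1GALT1-3 replicate 3.

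IFNAR1, 1 of the 2 type I receptor chains, had log2 signals of 7.05, 7.02 and 8.17 in si-Control and 7.92, 7.77 and 8.51 in si-C1GALT1-3 on probe A_33_P3277988. Replicate 3 was the highest of both groups, and the groups overlapped. The difference was 0.65 (SE 0.39, 95% interval -0.31 to 1.61, limma adjusted p = 0.524), with 0.87, 0.74 and 0.34 on the 3 slides. It was 1.03 without si-Control replicate 3 and 0.43 without si-C1GALT1-3 replicate 3, and IFNAR1 was called in neither case.

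IFNAR2, the other type I chain, had 3 probes whose differences did not share a sign. The brightest, A_33_P3361457, read 10.79, 11.48 and 10.77 in si-Control and 11.07, 11.35 and 10.69 in si-C1GALT1-3. These arrays overlapped, and the difference was 0.03 (SE 0.28, 95% interval -0.66 to 0.71, limma adjusted p = 0.992). A probe of the same RefSeq transcript, A_33_P3337540, read 10.27, 10.17 and 10.18 in si-Control and 9.95, 9.99 and 9.55 in si-C1GALT1-3. All its si-C1GALT1-3 arrays were below its si-Control arrays, with a difference of -0.38 (SE 0.17, 95% interval -0.79 to 0.03, limma adjusted p = 0.395). The probe assigned to another IFNAR2 transcript, A_23_P211080, read 7.87 and 8.49 in si-Control replicates 1 and 3 and 9.39, 9.34 and 8.84 in si-C1GALT1-3, and its replicate 2 control spot lay in the block left out. Its si-C1GALT1-3 arrays were all above both si-Control arrays, with a difference of 1.01 (SE 0.29, 95% interval 0.24 to 1.78, limma adjusted p = 0.269). With the block kept that difference was 2.63 with an SE of 1.39. None of the 3 probes was called.

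IFNLR1, the chain particular to the type III receptor, was well above background with 1 of its 3 probes, which is assigned to 1 transcript of the gene. Probe A_24_P19677 had log2 signals of 7.37, 7.83 and 7.49 in si-Control and 6.94, 6.85 and 7.44 in si-C1GALT1-3. The si-C1GALT1-3 arrays of replicates 1 and 2 were below all si-Control arrays, and that of replicate 3 lay among them. The difference was -0.49 (SE 0.22, 95% interval -1.04 to 0.07, limma adjusted p = 0.415). Probes A_33_P3268612 and A_23_P74112, assigned to another transcript of the gene, were not well above background on any array, and no fold is given for them. The difference of -0.49 is therefore a reading of the transcript assigned to A_24_P19677 only, and the other transcript was not detected. Which of them encodes the signalling receptor was not examined.

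IL10RB, the second chain of the type III receptor, had log2 signals of 9.20, 9.46 and 9.25 in si-Control and 9.87, 9.85 and 9.88 in si-C1GALT1-3 on probe A_24_P322741. The si-C1GALT1-3 arrays were nearly equal and all above si-Control. The mean was 9.30 ± 0.14 against 9.87 ± 0.02 (SD, n = 3 each), and the difference was 0.57 (SE 0.13, 95% interval 0.24 to 0.90), or 1.48-fold, with limma's adjusted p = 0.182. IL10RB was under the 2-fold limit and was not called.

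**Figure D2:**
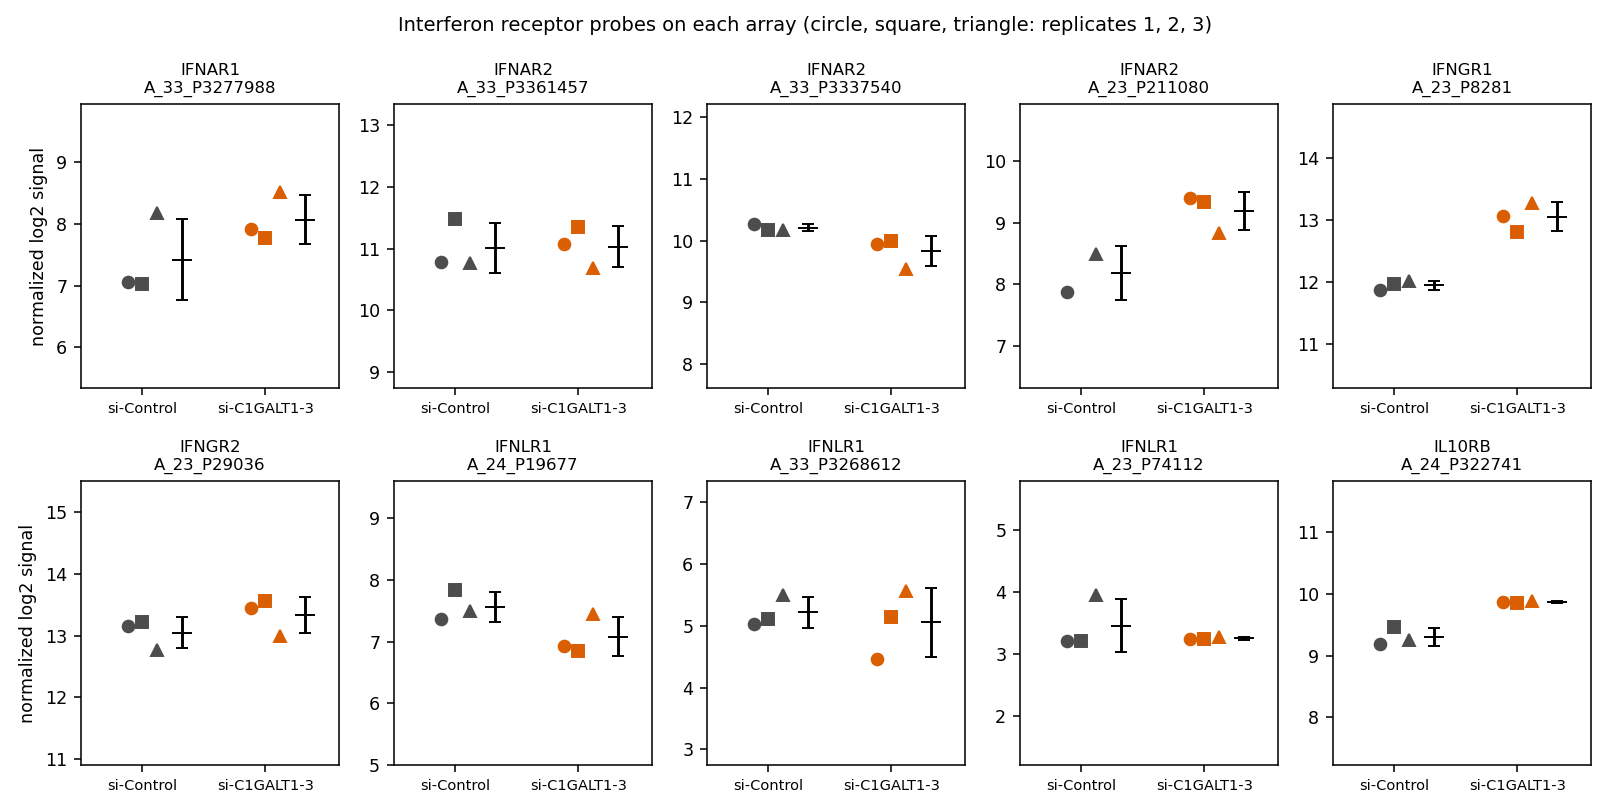
Normalized log2 signal (vertical axis) of the 10 receptor probes on each array, drawn as for the ligands with the mean and SD beside the points. IFNGR1 rose from 11.95 to 13.05 and the 3 IFNAR2 probes did not share a sign; the IFNLR1 probes A_33_P3268612 and A_23_P74112 were not well above background.

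**Figure D3:**
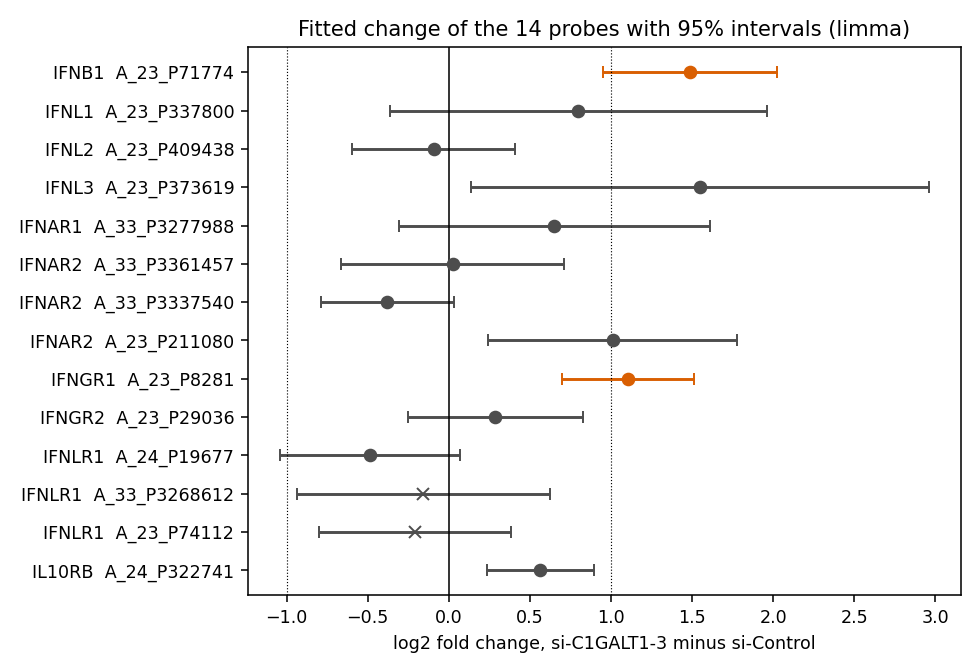
Fitted log2 fold change (horizontal axis, si-C1GALT1-3 minus si-Control) of the 14 probes, with 95% intervals from limma; orange marks called probes, crosses mark probes not well above background on any array and dotted lines mark 2-fold. IFNB1 at 1.49 and IFNGR1 at 1.11 are the called probes, and the interval of IFNL3 runs from 0.14 to 2.96.

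Genes of a ligand pair or a receptor pair were also compared within each array, which removes what both probes of an array share. The 8 pairs were chosen after their values were seen, and in an exact two-sided permutation test 3 arrays against 3 cannot give a p under 0.1. The p-values and separations of these pairs are therefore a description and no independent support. IFNL2 itself differed by -0.09, so a difference against it mostly repeats the change of the other gene. How often other pairs of probes separate was not tested. The difference IFNL3 minus IFNL2 was 1.64 higher in si-C1GALT1-3 and IFNB1 minus IFNL2 was 1.58 higher, in both cases with no overlap of the groups (exact permutation p = 0.1, adjusted p = 0.16 for each). IFNL1 minus IFNL2 was 0.99 higher over 5 arrays (exact permutation p = 0.2, adjusted p = 0.267). Among the receptors, IFNGR1 minus IFNGR2 was 0.82 higher and IL10RB minus IFNLR1 was 1.05 higher, again with no overlap (exact permutation p = 0.1, adjusted p = 0.16 for each). The transcript probe A_23_P211080 of IFNAR2 minus A_33_P3361457 was 0.75 higher over 5 arrays, with no overlap (exact permutation p = 0.1, adjusted p = 0.16). The groups overlapped for IFNAR1 minus IFNAR2 and for the 2 IFNAR2 probes of the same transcript.

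**Figure D4:**
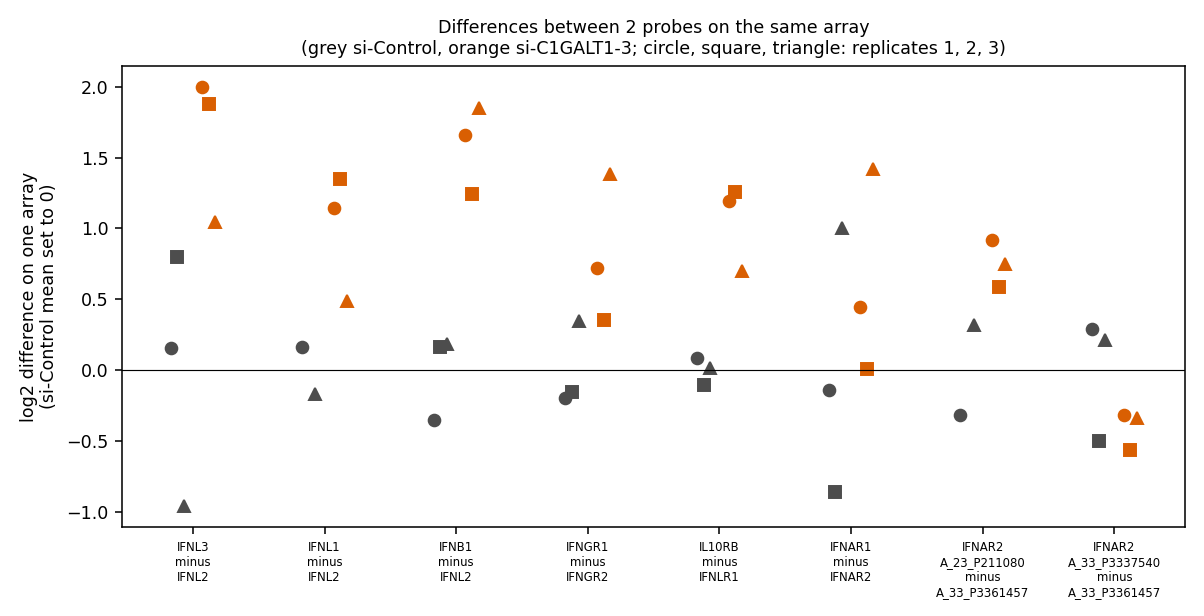
Difference between the log2 signals of 2 probes on the same array (vertical axis), with the si-Control mean of each pair set to 0, for 8 pairs of interferon probes; grey points are si-Control and orange points si-C1GALT1-3. The 2 groups separate for IFNL3 minus IFNL2, IFNGR1 minus IFNGR2 and IL10RB minus IFNLR1, and overlap for IFNAR1 minus IFNAR2.

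Most other ligands of the family were not above background throughout a group. Of 18 listed, 13 had a probe, 5 were above background throughout 1 group or both and 6 on no array, among them IFNG. IFNE, a type I interferon known from epithelia, was the only one of the 13 called, beside 3.41% of all genes. Its log2 fold change was 1.34 (SE 0.20, limma adjusted p = 0.0979). IFNA2 differed by 0.73 and IFNA21 by 0.75, neither of them called, and IFNA4 and IFNA7 differed by 0.07 and 0.09. The IFNA genes are close copies of each other, and IFNA2 was above background on 1 of 3 si-Control arrays. The median over the 13 was 0.02, with 8 of them above background throughout neither group. The call of IFNE was lost with the low block kept (1.15, limma adjusted p = 0.340) and with normexp (0.99, limma adjusted p = 0.0555).

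None of the 6 other chains of the class II cytokine receptor family, to which the interferon receptors belong, was called, beside 3.41% of all genes. Their median was -0.25. F3, the coagulation tissue factor, differed by 0.22, IL10RA by -0.15, IL20RB by -0.34, IL22RA1 by -0.41 and IL22RA2 by -0.54. IL20RA differed by 1.52 (SE 0.67, limma adjusted p = 0.395) with groups that did not overlap, and it was well above background on 1 of 3 si-Control and 2 of 3 si-C1GALT1-3 arrays.

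Of 14 genes that signal below the receptors or hold that signal back, none was called, beside 3.41% of all genes. Of the 14, 13 were above 0, against 52.4% of all genes, and the median was 0.37. For 7 of them the groups did not overlap with si-C1GALT1-3 higher, and for 1 with it lower, against 25.3% of all genes in either direction. STAT2, a transcription factor downstream of type I and III receptors, differed by 0.86 (SE 0.30, limma adjusted p = 0.308), and JAK1, the kinase shared by all 3 receptor types, by -0.59 (SE 0.14, limma adjusted p = 0.188).

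Among 20 genes that lead to interferon production, 1 was called, beside 3.41% of all genes. The median was 0.34, with 17 above 0, beside the same 52.4% of all genes. The gene called was TLR3, the endosomal sensor of double-stranded RNA, at 1.95 (SE 0.16, limma adjusted p = 0.0499). The lowest value was that of CGAS, a cytosolic DNA sensor, at -0.74 (SE 0.29).

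The interferon-stimulated genes were counted as well, and whether their changes came through the receptors was not tested. Of 34 listed, 32 had a probe, 18 were called higher and 0 lower, 30 were above 0 and the median was 1.06, beside the 2.08% of all genes called higher. The highest was GBP1, an interferon-induced GTPase, at 3.48 (SE 0.50, limma adjusted p = 0.094), which was above background on 1 of 3 si-Control arrays, and the lowest was IDO1, a tryptophan-degrading enzyme, at -0.29. TRIM22, also called, was well above background on no si-Control array, so its rise is known only as at least 2.36-fold. Earlier results of these data were known when this list was made, so its count is not independent evidence of its direction.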

How the data were processed

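Total RNA of AGS cells was measured in 3 si-Control and 3 si-C1GALT1-3 samples, grouped by their labels. The authors deposited spot intensity from Agilent Feature Extraction 10.5.1.1, background-corrected by that software and not normalized between arrays; the authors also deposited a series table, whose intensity values equal the background-subtracted column of the array files.

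From the processed intensity, log2 values were taken, control spots left out, and spots flagged as outliers (100 to 424 per array) and spots of the low block on si-Control replicate 2 (rows 113 to 288, columns 59 to 115) set to missing. Quantile normalization was applied across arrays, probe spots were averaged, and all probes fitted with limma 3.58.1 (lmFit, eBayes) in R 4.3.3, with Benjamini-Hochberg adjustment over 58193 probes. The procedure was tested on simulated data. Probes were named through RefSeq genes of GRCh38.p14, which gave a symbol to 31104 of 58201 probes, and a gene was read on its probe with the highest mean log2 signal. The members, the lists and the low block were chosen with earlier results of these data known. Named genes are the 10 members, C1GALT1, the highest and lowest gene of each list among those above background in a group, and all above-background genes of the other ligands and receptor chains. STING1, IFNK, IL20RA, TRIM22 and the cell markers are named beyond that rule, all but the markers after their values were seen. IFNA1, IFNA5, IFNA13, IFNA17, IFNL4, IFI27 and SAMD9L of the lists were not matched. Deviations from the group means correlated between same-numbered arrays, which share a slide per the file headers, at 0.200, 0.214 and 0.318, so the replicate block was run as a paired alternative. The labels do not say whether samples were separate cultures, so p-values measure the spread between these samples, which may be technical, and the number of arrays limits the precision. Alternatives were the block of spots kept, the 75th percentile or no normalization, normexp (offset 50) on the median spot signal, since the mean spot signal is not used here, the series table floored at 10, dim probes left out, the replicate block, a trend and robust prior, the methods' t-test, outlier spots kept, the median over a gene's probes, and each array left out in turn.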

Additional observations from a re-analysis of the deposited data

How the results depend on the processing

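IFNB1 was called in all 17 alternatives (log2 fold change 1.07 to 1.69, limma adjusted p 0.0318 to 0.356) and IFNGR1 in 16 of 17 (0.99 to 1.23, limma adjusted p 0.0325 to 0.411), the exception being the fit without si-C1GALT1-3 replicate 3. IFNL3 was above 0 in all 17 (1.03 to 1.95) and was called in 1, the fit with the replicate block, which brought the interferon genes called from 2 to 3; leaving out each array in turn gave 1 to 2. The block changed no other call of these genes, and it brought the induction genes called from 1 to 2, with STING1 (1.25 in the fit reported) beside TLR3. IFNL1, IFNAR1, IFNGR2 and IL10RB were above 0 and IFNLR1 below 0 in all 17, and none of them was called in any, although leaving out 1 array moved IFNL1 (0.45 to 1.15), IFNAR1 (0.43 to 1.03) and IFNGR2 (0.15 to 0.45) by over 1.5 times at an extreme. IFNAR2, at 0.03, turned to -0.069 with the block of spots kept, -0.075 with normexp, -0.078 with the series table and -0.60 with the median over its probes, which mixes probes since 1 is missing on si-Control replicate 2, and ranged from -0.13 to 0.26 when each array was left out. IFNL2, at -0.09, turned to 0.036 without normalization, and ranged from -0.22 to 0.048 when each array was left out. C1GALT1 ranged from -1.20 to -0.75 and was called in 1 alternative, with dim probes left out, at -1.0. Other ligands called numbered 0 with the block of spots kept and with normexp, where IFNE lost its call, and 1 to 2 when each array was left out. The additional one was IFNK without si-Control replicate 3, and it was called lower in si-C1GALT1-3. It read 6.40 and 6.92 in the si-Control arrays kept and 5.07, 5.50 and 5.30 in si-C1GALT1-3, where 1 of 3 arrays was well above background. Induction genes called numbered 3 with normexp and 2 with dim probes left out, and 1 to 2 when each array was left out. Signalling genes called numbered 0 to 1 when each array was left out, the 1 being STAT2 without si-Control replicate 2. Interferon-stimulated genes called ranged from 12 to 19. Of all genes, 765 were called, 448 by the methods' t-test and 523 to 849 when each array was left out. The share of called genes that were higher was 60.9%, and it was 75.6% without normalization, 42.0% with the block of spots kept and 50.6% without si-Control replicate 1. The cause of these differences was not tested.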
